A study of Mus musculus with 8 samples.

Results

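Cyp2a4 and Cyp2a5 are closely related cytochrome P450 genes of the same mouse gene cluster, and their levels in kidney nuclei were described by cell class, genotype and time of day. The members were the rows of the count table named Cyp2a4 and Cyp2a5, which were 2 of 32285 genes, of which 21286 were protein-coding. They were picked because their counts were known to be lower in cKOt than in Ctrl nuclei, so that difference is given as a description with no test. Single-nucleus RNA-seq had been run on frozen kidneys of male C57BL/6J mice, with 8 libraries in 4 groups of 2. The cKOt mice were Bmal1lox/lox/Pax8-rtTA/LC-1, in which doxycycline switches on Cre in the renal tubules, and the Ctrl mice were Bmal1lox/lox littermates without the transgenes. Both genotypes were 8 weeks old when doxycycline (2 mg/ml) was added with sucrose (20 mg/ml) to the drinking water for 2 weeks, and all were killed at 14 weeks of age after housing in 12 h of light and 12 h of darkness. Zeitgeber time (ZT) counts the hours from lights on, and each genotype was sampled at ZT4, in the light phase, and at ZT16, in the dark phase. Bmal1, listed as Arntl, is the core-clock gene removed in cKOt tubules. Its counts cover the whole gene while Cre deletes a part of it, so they could not check the labels, and in proximal tubule nuclei they were 14.1 and 17.4 CPM (counts scaled to 1000000 protein-coding UMIs of the same nuclei, where a UMI, or unique molecular identifier, is 1 counted RNA molecule) in Ctrl at ZT4, 184 and 185 in Ctrl at ZT16, 321 and 213 in cKOt at ZT4 and 322 and 285 in cKOt at ZT16.

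Cytochrome P450 enzymes of the CYP2A subfamily are haem proteins of the endoplasmic reticulum that take electrons from POR, the P450 oxidoreductase. CYP2A4 hydroxylates steroids such as testosterone, and CYP2A5 hydroxylates coumarin and oxidises nicotine. Both are best known from liver, where the clock-controlled PAR bZIP factor DBP drives rhythmic transcription of their genes, and TEF and HLF bind like sites while NFIL3 competes for them. In the kidney, such enzymes are found mainly in the proximal tubule, which reabsorbs the filtrate and secretes drugs.

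Both genes lie on the plus strand of chromosome 7 in the Cyp2 gene cluster. In RefSeq's annotation of GRCm38.p6, Cyp2a4 spans 26307192 to 26315088 and Cyp2a5 spans 26835339 to 26843264, 520.2 kb apart, with 10 genes between them, 7 of them protein-coding. The 250 bases before each gene's start are shown because they are nearly the same and because DBP's known action on both genes is at the promoter. The capitals mark TTGCATAA, an 8-base stretch picked from these sequences for its likeness to sites of bZIP factors, whose first base lies 70 bases before the start of Cyp2a4 and 71 before that of Cyp2a5.
Cyp2a4, chr7:26306942-26307191, plus strand: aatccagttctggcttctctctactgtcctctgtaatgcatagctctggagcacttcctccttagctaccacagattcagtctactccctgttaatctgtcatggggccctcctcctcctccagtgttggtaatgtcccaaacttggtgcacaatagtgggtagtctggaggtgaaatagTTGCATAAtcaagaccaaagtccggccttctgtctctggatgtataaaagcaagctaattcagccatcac
Cyp2a5, chr7:26835089-26835338, plus strand: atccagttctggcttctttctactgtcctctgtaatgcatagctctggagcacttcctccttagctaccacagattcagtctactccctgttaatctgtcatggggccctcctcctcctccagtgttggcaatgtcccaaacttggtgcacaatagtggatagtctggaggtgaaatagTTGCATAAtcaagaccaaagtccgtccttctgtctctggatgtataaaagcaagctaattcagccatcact
Over 249 aligned bases, 245 were identical (98.39%). The 4 differences were C19T, T131C, G161A and G205T, with the base of Cyp2a4 first and positions counted from 1 at the first printed base of Cyp2a4, so none fell in the marked stretch. TTGCATAA was found, on either strand, in 201 of 27025 mouse promoters (0.7438%), here the RefSeq windows of the 250 bases before a start. Of 12 promoters of the Cyp2 cluster, with that of Cyp2g1 not used here, it was in 5, those of Cyp2a4, Cyp2a5, Cyp2b10, Cyp2b19 and Cyp2b23. The usual PAR bZIP sites TTATGTAA (0.8622% of promoters) and TTACGTAA (0.09991%) and the E-box CACGTG (6.046%), the site of the BMAL1 dimer, were not found in these windows, and TATAAAA (5.299%) was in both. These matches describe letters and do not show binding.

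A total of 81391 nuclei were kept of 82784 barcodes, with 8758 to 10975 nuclei and 36548873 to 54500820 UMIs per library. Replicates differed by more than counting noise (chi-square divided by its degrees of freedom, 36.6 to 64.6), and any pair of libraries shared 18 to 42 barcodes, at most 0.42%. The second Ctrl ZT16 library held the most RNA of the medulla, with summed CPM of the thin descending limb markers of 1368 against 206 to 683 in the other libraries. Reads that match both genes are a limit: 14.55% of the 90-base stretches of the Cyp2a4 transcript and 12.35% of those of Cyp2a5 occur unchanged in the other, as do 9.73% and 1.70% of those in the last 500 bases (GENCODE, GRCm39), and the treatment of such reads is not stated. An antisense lncRNA gene, Gm42375 (GRCm39 chr7:26003842-26016774, minus strand), covers the whole of Cyp2a4 and has its own row. Whether the counting used strand is not stated, so its reads and those of Cyp2a4 may not be fully separated. Another lncRNA gene, Gm71933 (GRCm39 chr7:26529557-26536843, minus strand), overlaps Cyp2a5 and has no row in the count table. Its reads could not be looked at, and they may not be separated from those of Cyp2a5. The proximal tubule UMIs of Gm42375 were 106, 197, 177 and 75 in the Ctrl libraries and 66, 116, 167 and 89 in the cKOt libraries, ranges that overlap.

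Both genes were far lower in cKOt than in Ctrl kidneys at either time of day, Cyp2a5 more so than Cyp2a4. Summed over all nuclei, Cyp2a4 had 29.2 and 26.6 CPM in Ctrl at ZT4, 30.6 and 25.6 in Ctrl at ZT16, 2.56 and 3.11 in cKOt at ZT4, and 4.90 and 3.02 in cKOt at ZT16. Cyp2a5 had 11.0 and 6.28 CPM in Ctrl at ZT4, 8.82 and 7.81 in Ctrl at ZT16, 0.366 and 0.313 in cKOt at ZT4, and 0.560 and 0.461 in cKOt at ZT16. For both genes the lowest Ctrl library lay above the highest cKOt library, a pattern that 3.53% of the 16351 genes tested shared; since this contrast chose the genes, nothing is read from it. The counts behind these levels were 881, 1106, 1386 and 948 UMIs of Cyp2a4 in the Ctrl libraries against 91, 129, 210 and 118 in the cKOt libraries. For Cyp2a5 they were 331, 261, 399 and 289 against 13, 13, 24 and 18. The mean level left in cKOt was 12.1% of the Ctrl level for Cyp2a4 and 5.01% for Cyp2a5. In a sum over all nuclei, fewer cells of a type and less RNA per cell cannot be told apart, so the same levels follow within the proximal tubule.

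**Figure D1:**
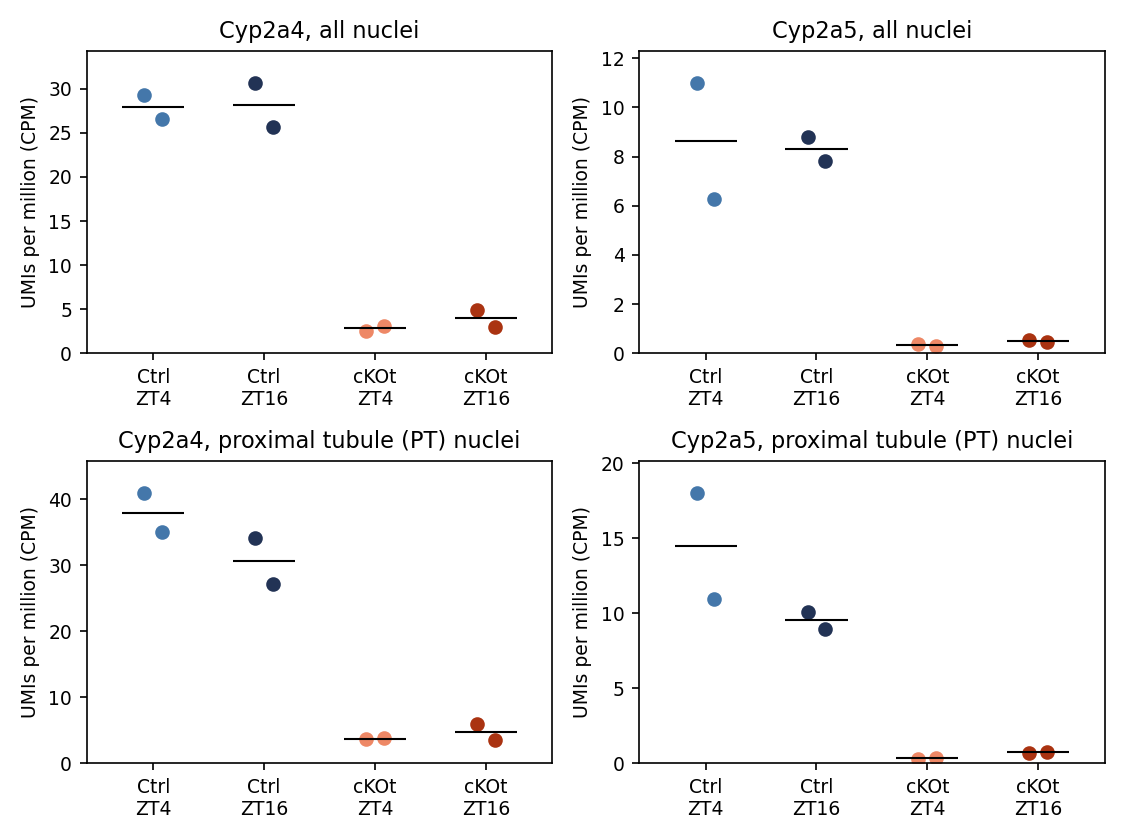
Level of Cyp2a4 and Cyp2a5 in CPM (UMIs scaled to 1000000 protein-coding UMIs, linear axes from 0) in each of the 8 libraries, over all nuclei (top) and proximal tubule nuclei (bottom). Each point is 1 library and each line the mean of the 2 libraries of a group. The 4 cKOt libraries sit between 2.56 and 4.90 CPM for Cyp2a4 over all nuclei, below the lowest Ctrl library at 25.6.

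Proximal tubule (PT) nuclei were those in clusters that matched markers of the convoluted segment (PCT), of the straight segment (PST), or only the markers that both segments share (PT-shared). There were 12330 PT nuclei in Ctrl and 13866 in cKOt. Their Cyp2a4 level was 41.0 and 35.0 CPM in Ctrl at ZT4, 34.2 and 27.2 in Ctrl at ZT16, 3.59 and 3.83 in cKOt at ZT4, and 5.88 and 3.54 in cKOt at ZT16. Their Cyp2a5 level was 18.0 and 11.0 CPM in Ctrl at ZT4, 10.1 and 8.98 in Ctrl at ZT16, 0.281 and 0.344 in cKOt at ZT4, and 0.708 and 0.742 in cKOt at ZT16. The genotypes did not overlap for either gene, as for 3.29% of the 14636 genes tested in PT nuclei. The level left in cKOt was 12.3% for Cyp2a4 and 4.32% for Cyp2a5. The edgeR estimates of the log2 fold change of cKOt over Ctrl, given with no test, were -3.35 at ZT4 and -2.67 at ZT16 for Cyp2a4. For Cyp2a5 they were -5.49 at ZT4 and -3.69 at ZT16. Across all genes tested in PT nuclei, edgeR's quasi-likelihood test called 47 genes lower in cKOt at ZT4 (0.327%) and 40 at ZT16 (0.279%). The markers shared by both segments were not lower: the 8 of them summed to 9189 to 11094 CPM in Ctrl PT nuclei and 10612 to 11778 in cKOt. These markers helped to name the PT clusters, so their level in PT nuclei is partly set by the naming. Over all nuclei, where naming plays no part, they summed to 4357 to 5795 CPM in Ctrl and 5419 to 6889 in cKOt. The 6 PST markers were lower in every cKOt than in every Ctrl library, at 4321 to 5627 CPM in Ctrl and 3138 to 4286 in cKOt PT nuclei. So were the 8 mesangial and pericyte markers, at 64.7 to 79.5 against 47.8 to 60.3 CPM, and the 6 T and NK cell markers, at 3.83 to 5.02 against 2.92 to 3.71 CPM. Their part in the difference of Cyp2a4 and Cyp2a5 was not tested. The 6 hepatocyte markers summed to 41.2 to 99.9 CPM in Ctrl and 42.1 to 96.5 in cKOt PT nuclei.

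In Ctrl the levels of the 2 genes were ordered differently over PCT, PT-shared and PST nuclei, where PT-shared is not a position along the tubule. The PCT counts of Cyp2a4 and the PST counts of Cyp2a5 are not read as expression, for the reason given further on. The mean of Cyp2a4 was highest in the straight segment, and Cyp2a5 had few counts there and was highest in PT-shared nuclei. In PST nuclei, which were 1 cluster present in similar numbers in every library (388 to 511 nuclei), Cyp2a4 had 71.4 and 55.7 CPM in Ctrl at ZT4, 67.7 and 44.2 in Ctrl at ZT16, 12.6 and 9.91 in cKOt at ZT4, and 15.7 and 11.5 in cKOt at ZT16. Every Ctrl library was above every cKOt library, as for 3.79% of the 12361 genes tested in PST nuclei, and 20.8% of the mean was left. Cyp2a5 in the same nuclei had 3, 1, 11 and 11 UMIs in the Ctrl libraries and 1, 1, 0 and 2 in the cKOt libraries. The cKOt and Ctrl ZT4 counts were at or under the 3 UMIs that a count of 0 allows (0.672 CPM in the first cKOt ZT16 library), and the Ctrl ZT16 counts were above it.

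In Ctrl, PT-shared nuclei held most UMIs of both genes in the PT (1401 of 2320 for Cyp2a4 and 615 of 794 for Cyp2a5), while in cKOt PST nuclei held more of Cyp2a4 (168 of 337) than PT-shared nuclei (138). Cyp2a4 was 47.4 and 37.8 CPM in Ctrl at ZT4 and 31.2 and 28.5 at ZT16, and 2.45 to 4.87 CPM in the 4 cKOt libraries. Cyp2a5 was 24.9 and 13.6 CPM in Ctrl at ZT4 and 13.8 and 12.2 at ZT16, and 0.446 to 1.47 CPM in the cKOt libraries. Of the Ctrl mean, 9.62% was left for Cyp2a4 and 5.68% for Cyp2a5, and neither gene's genotypes overlapped, as for 2.76% of the 13749 genes tested. Different clusters held most PT-shared and PCT nuclei in the 2 genotypes. Of the 3 PT-shared clusters, 1 held mostly cKOt nuclei and 1 nearly all Ctrl nuclei, and the third had 349 to 840 nuclei in each library of both genotypes. There the Ctrl libraries had 17.1, 15.7, 15.7 and 15.9 CPM of Cyp2a4 and the cKOt libraries 2.05, 2.58, 2.12 and 1.05. In that cluster Cyp2a5 was 17.5, 11.3, 14.3 and 9.15 CPM in Ctrl against 0.409, 0.234, 1.06 and 0 in cKOt. The share of all genes whose genotypes do not overlap was not counted in that cluster, so nothing is read from these values. The cluster of nearly all Ctrl nuclei held more Cyp2a4, at 68.9, 46.5, 46.0 and 31.9 CPM in the Ctrl libraries, which overlapped the PST range.

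In PCT nuclei Cyp2a5 was counted in every Ctrl library and almost never in cKOt. The Ctrl libraries held 52, 59, 27 and 15 UMIs of Cyp2a5, or 12.9, 13.0, 6.28 and 4.59 CPM, while 3 of the 4 cKOt libraries held 0 UMIs and the fourth held 1. A count of 0 allows at most 0.413 to 0.494 CPM in those 3 libraries. Cyp2a4 in PCT nuclei was 12.2, 13.4, 11.9 and 8.58 CPM in Ctrl and 1.15, 1.57, 1.38 and 0.618 in cKOt, or 10.2% of the Ctrl mean. Both genes were lower in every cKOt than in every Ctrl library, as were 2.31% of the 12932 genes tested in PCT nuclei.

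**Figure D2:**
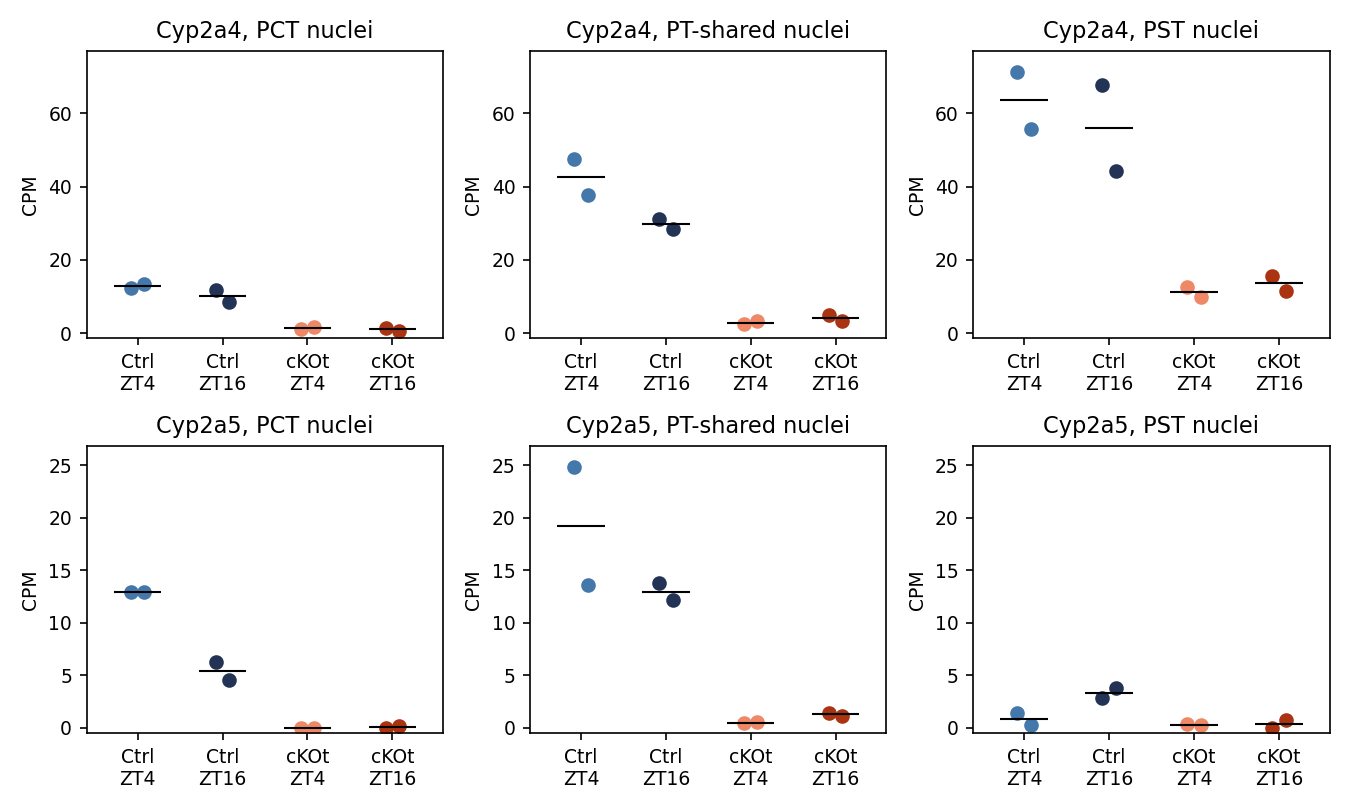
Level of Cyp2a4 and Cyp2a5 in CPM (linear axes from 0) in PCT, PT-shared and PST nuclei of each library, where points are libraries and lines the means of the 2 libraries of a group. Cyp2a4 reaches 44.2 to 71.4 CPM in Ctrl PST nuclei, where Cyp2a5 stays at 0.296 to 3.83 CPM.

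The ratio of Cyp2a4 to Cyp2a5 UMIs needs no scaling, and the gene bodies are of nearly the same length (7897 and 7926 bases). Summed over the 4 Ctrl libraries it was 28.1 in PST nuclei (730 and 26 UMIs), 2.28 in PT-shared nuclei (1401 and 615) and 1.24 in PCT nuclei (189 and 153). Cyp2a5 thus made up 3.44% of the pair's UMIs in PST nuclei (exact 95% binomial interval 2.26 to 5.00), 30.5% in PT-shared nuclei (28.5 to 32.6) and 44.7% in PCT nuclei (39.4 to 50.2). These intervals cover counting error only, and the 3 do not overlap. The PCT value rests on Cyp2a4 and the PST value on Cyp2a5 counts that are not read as expression, since fewer thinned nuclei held a UMI there (1.10% and 0.119%) than among vascular nuclei (2.39% and 0.736%), so the ratios describe counts only. By library, the PCT share was 51.5% and 49.2% in Ctrl at ZT4 and 34.6% and 34.9% at ZT16, and the PT-shared share 26.4% to 34.4%. At ZT16 the exact intervals of PCT and PT-shared overlapped in each library. Between libraries, the PST ratio ranged from 11.5 to 188 in Ctrl, with 1 to 11 UMIs of Cyp2a5 behind it. Over the named classes outside the PT, Cyp2a5 made up 19.0% in Ctrl (17.5 to 20.7), and over all nuclei 22.9% (21.8 to 24.0). In cKOt the ratio was 8.06 over all nuclei (548 and 68 UMIs) and 8.22 in PT nuclei (337 and 41). By segment, cKOt had 168 and 4 UMIs in PST (a Cyp2a5 share of 2.33%, exact interval 0.637 to 5.85), 138 and 36 in PT-shared (20.7%, 14.9 to 27.5) and 31 and 1 in PCT nuclei (interval 0.0791 to 16.2%). The Ctrl order, with the largest Cyp2a5 share in PCT, was thus not seen in cKOt.

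Most nuclei showed neither gene. Of the 12330 PT nuclei of Ctrl, 85.9% had no UMI of Cyp2a4 and 94.8% none of Cyp2a5, and the highest count in a nucleus was 7 and 8. In Ctrl PST nuclei 375 of 1756 (21.4%) had 1 UMI of Cyp2a4, 109 had 2, 25 had 3 and 14 had more. In cKOt PST nuclei 115 of 1871 (6.15%) had 1 UMI, 18 had 2, 4 had 3 and 1 had more, so the lower level came with fewer nuclei at every count above 0. After each nucleus was thinned to 1000 UMIs, 9 of 12304 Ctrl PT nuclei held both genes, 386 Cyp2a4 alone and 136 Cyp2a5 alone, where 4.65 would hold both if the genes were independent. At this depth the counts do not show whether single cells use 1 gene or both.

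Outside the PT both genes were also counted, and there too they were lower in cKOt. Of 22 classes, 17 had at least 50 nuclei in every Ctrl library. Per 100 nuclei, Cyp2a4 was highest in PST at 41.0 UMIs ± 10.1 (SD, n = 4 Ctrl libraries), followed by PT-shared at 22.5 ± 3.93, and the ranges of these 2 classes did not overlap (30.3 to 54.5 and 17.2 to 26.7). With clusters from 50 principal components they did overlap (31.3 to 53.7 and 15.7 to 32.6). PT-shared is a mix, however, and its cluster of nearly all Ctrl nuclei had 36.4, 35.4, 35.6 and 20.9 UMIs per 100 nuclei, overlapping PST, while the cluster shared by both genotypes had 7.61 to 10.7. From PT-shared onward each class overlapped the next in order, from beta-intercalated cells (14.5), the connecting tubule (11.5) and medullary collecting duct (11.3) down to vascular cells (4.83), mesangial cells and pericytes (4.42) and PCT (4.37). Cyp2a5 was highest in PT-shared at 9.82 ± 2.00, followed by beta-intercalated cells (4.58), PCT (3.43) and the cortical collecting duct (2.87), with PST in place 11 (1.47) and smooth muscle with juxtaglomerular cells last (0.410). Each of these neighbours overlapped in range. PST nuclei had median depths of 4832.5 to 7219 UMIs in the Ctrl libraries, and by CPM Cyp2a5 in PST was place 16 of 17 (2.09 CPM) and PCT came second (9.20). By CPM the range of Cyp2a4 in PST (mean 59.8) also overlapped that in PT-shared (36.2), and PCT was again last (11.5). Smooth muscle with juxtaglomerular cells (35.0 ± 28.1) and myeloid cells (30.9 ± 13.8) came next to PT-shared by CPM, at places 3 and 4 of 17.

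**Figure D3:**
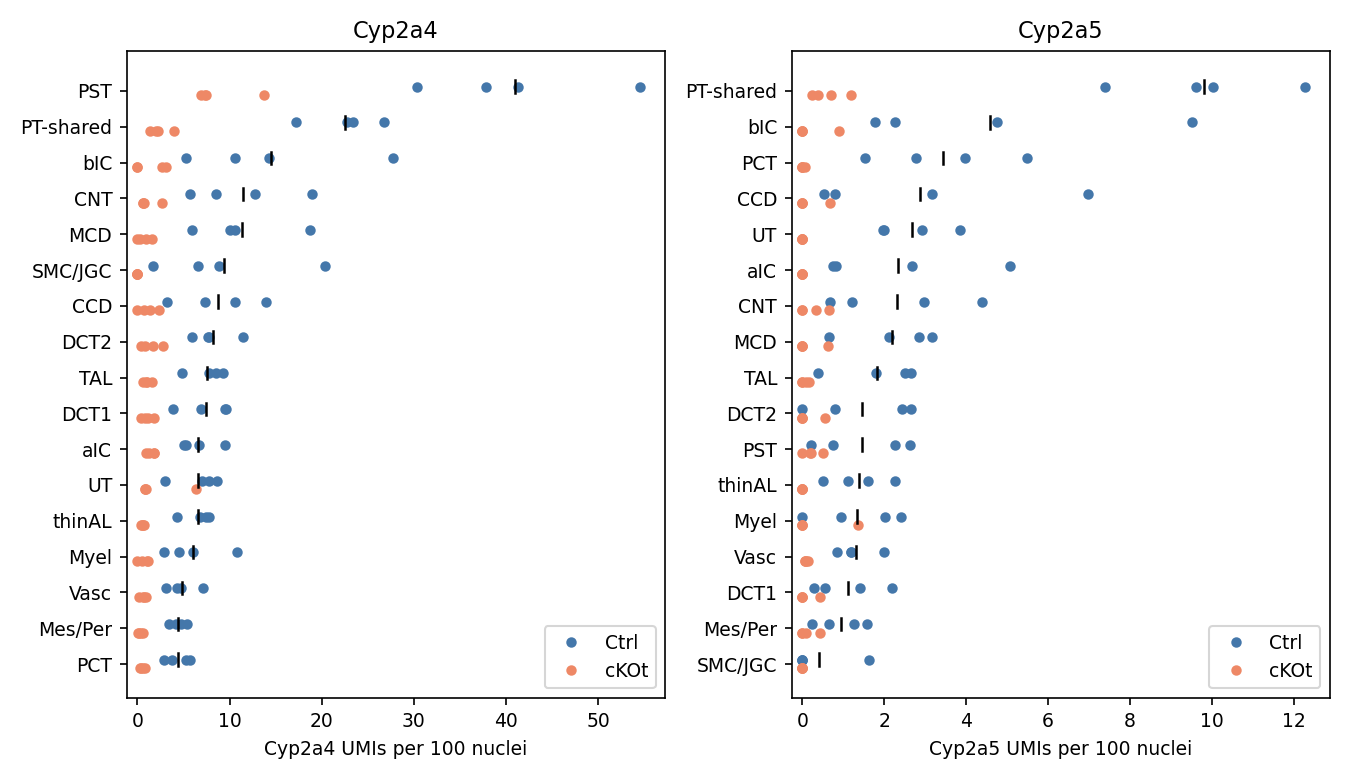
Mean level of Cyp2a4 and Cyp2a5 in UMIs per 100 nuclei (linear axes from 0) in the 17 classes with at least 50 nuclei in every Ctrl library, over the 4 Ctrl libraries, with the libraries' values as points. Cyp2a4 is led by PST at 41.0 and Cyp2a5 by PT-shared at 9.82.

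Vascular nuclei, a class that lies outside the tubule and in which Pax8-rtTA is not active, were compared with PT nuclei. They held 321 UMIs of Cyp2a4 in Ctrl and 37 in cKOt, and 86 and 5 of Cyp2a5. Their Ctrl CPM was 69.5% of that in PT nuclei for Cyp2a4 and 54.7% for Cyp2a5, while for 8 PT markers, Slc34a1 and Lrp2 among them, it was 5.94% to 22.2%, with a median of 10.3%. Per nucleus, where vascular nuclei have fewer UMIs, these values were 25.7% and 20.4% for the members and 2.16% to 7.98% for the markers. In cKOt 12.3% of the vascular Cyp2a4 level and 6.54% of the Cyp2a5 level were left, beside 12.3% and 4.32% in PT nuclei. The PT markers had a median of 111% left in vascular and 94.9% in PT nuclei. Cyp2a4 and Cyp2a5 were chosen for being lower in cKOt and the markers were not, so nothing is read from that difference. In Ctrl, by CPM and per nucleus, the 2 genes were spread over PT and vascular nuclei more evenly than any of the 8 PT markers. Markers are picked for being high in the PT, however, so a low vascular share of theirs is built in. How many of all genes are spread as evenly as the pair was not counted, so nothing is read from this either. The vascular level of Cyp2a5 in cKOt rests on 5 UMIs. RNA free in the droplets gives UMIs in nuclei that do not make a gene, and its part in the counts outside the PT was not tested. The Cyp2a4 to Cyp2a5 ratio was 3.73 in vascular nuclei, 4.13 in the thick ascending limb and 4.25 over all named classes outside the PT, which lies between the PT segments' ratios of 1.24 and 28.1.

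Shares of nuclei with a UMI were set beside those of vascular nuclei. After thinning to 1000 UMIs, 6.20% of Ctrl PST nuclei had a UMI of Cyp2a4, 3.82% of PT-shared, 1.10% of PCT and 2.39% of vascular nuclei. For Cyp2a5 the shares were 1.56% in PT-shared, 0.991% in PCT, 0.119% in PST and 0.736% in vascular nuclei. By time, the Cyp2a5 share of PCT was above that of vascular nuclei at ZT4 (1.37% and 0.618%) and below it at ZT16 (0.614% and 0.853%). The shares of Cyp2a4 in PCT, of Cyp2a5 in PST and of Cyp2a5 in PCT at ZT16 were thus below the vascular share, so those counts are given as levels and not read as expression there. The source of the vascular UMIs was not tested. Without thinning, the Cyp2a4 shares were 29.4% in PST, 16.7% in PT-shared, 4.01% in PCT and 4.39% in vascular nuclei, with median depths of 4832.5 to 7219, 4475 to 6620, 2675 to 3729 and 1479 to 2076 UMIs. The unthinned Cyp2a5 shares were 1.42%, 7.75%, 2.94% and 1.23% in the same order, with PST now above vascular nuclei.

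**Figure D4:**
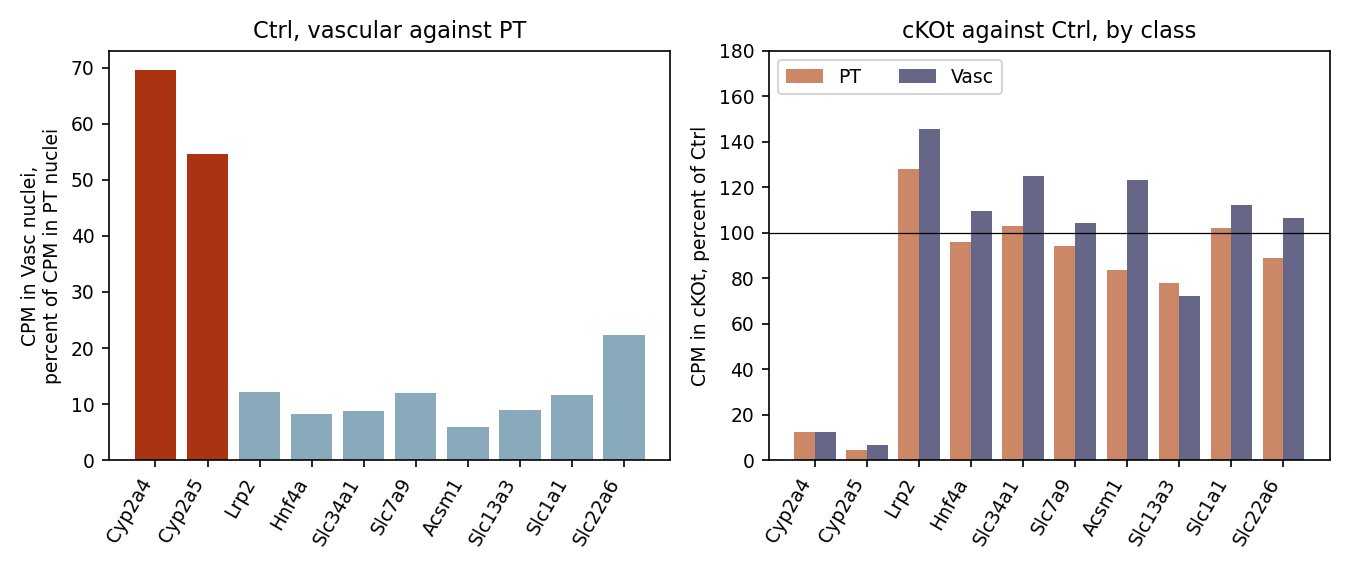
Ctrl CPM in vascular nuclei as a percentage of that in PT nuclei, and percentage of the Ctrl CPM left in cKOt in vascular and PT nuclei, for Cyp2a4, Cyp2a5 and 8 PT markers. Cyp2a4 (69.5%) and Cyp2a5 (54.7%) lie above all 8 markers (5.94% to 22.2%) in the first measure. Markers are picked for being high in the PT, so nothing is read from this. Cyp2a4 and Cyp2a5 were chosen for being lower in cKOt and the markers were not. Nothing is therefore read from their lower percentage left in cKOt.

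The time of day was compared within each genotype, with edgeR's quasi-likelihood test over all protein-coding genes and Benjamini-Hochberg adjustment. The genes were picked for their genotype difference in these same libraries, so their time effects may not be free of that choice. The difference between the genotypes' time effects is also that between the genotype effects at ZT16 and ZT4. It is therefore built from the differences for which the genes were picked. Neither gene passed an adjusted p of 0.05. Over all nuclei in Ctrl, the log2 fold change of ZT16 over ZT4 was 0.00 (SE 0.20, adjusted p = 0.998) for Cyp2a4 and -0.05 (SE 0.26, adjusted p = 0.971) for Cyp2a5, beside 23 of 16165 genes called (0.142%). In the named classes outside the PT, Cyp2a4 was 18.7 and 19.9 CPM in Ctrl at ZT4 and 28.4 and 24.5 at ZT16. Cyp2a5 there was 4.45 and 2.26 CPM at ZT4 and 7.87 and 6.92 at ZT16. In PT nuclei both genes had lower means at ZT16. The time difference outside the PT was not tested. The share of all genes with such a difference there was not counted, so nothing is read from it. In cKOt over all nuclei the log2 fold change of ZT16 over ZT4 was 0.49 (SE 0.22, adjusted p = 0.620) for Cyp2a4 and 0.60 (SE 0.40, adjusted p = 0.789) for Cyp2a5. There edgeR called 0 of 16069 genes (0%), although 1337 had an unadjusted p under 0.05 and DESeq2 called 168. The difference between the genotypes' time effects was 0.49 (SE 0.30) and 0.66 (SE 0.48) on the log2 scale, with an edgeR adjusted p = 1.000 for both, beside 3 of 16351 genes called (0.0183%). The cKOt value of Cyp2a4 was 0.12 without the first and 0.78 without the second cKOt ZT16 library, as was its interaction. The interaction of Cyp2a5 was 0.22 without the first and 0.99 without the second Ctrl ZT4 library.

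In PT nuclei the time effects of the 2 genotypes pointed in opposite directions for both genes, but none passed the adjusted test. In Ctrl, ZT16 was below ZT4 by a log2 fold change of -0.32 (SE 0.20, edgeR adjusted p = 0.629) for Cyp2a4 and -0.60 (SE 0.25, unadjusted p = 0.0381, edgeR adjusted p = 0.455) for Cyp2a5, beside 0.314% of 14329 genes called. In cKOt it was 0.36 (SE 0.23, edgeR adjusted p = 0.837) for Cyp2a4 and 1.19 (SE 0.44, unadjusted p = 0.0243, edgeR adjusted p = 0.646) for Cyp2a5, where edgeR called 0 of 14408 genes (0%), 989 had an unadjusted p under 0.05 and DESeq2 called 70. The cKOt values of Cyp2a5 rested on 5, 7, 16 and 13 UMIs. The interaction was 0.68 (SE 0.30, unadjusted p = 0.0544) for Cyp2a4 and 1.80 (SE 0.50, unadjusted p = 0.0063) for Cyp2a5, both with an edgeR adjusted p = 1.000, beside 3 of 14636 genes called (0.0205%). The Ctrl time effect of Cyp2a5 was -0.25 without the first Ctrl ZT4 library. The positive time effect of Cyp2a4 in cKOt rested on the first cKOt ZT16 library, without which it was -0.022 and the interaction 0.30. Without the second cKOt ZT16 library the time effect was 0.62. With each nucleus thinned to 1000 UMIs it was -0.38, and the interaction of Cyp2a4 was -0.044.

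By segment, Cyp2a4 in PST nuclei had a log2 fold change of ZT16 over ZT4 of -0.21 (SE 0.23, edgeR adjusted p = 0.887) in Ctrl and 0.29 (SE 0.29, edgeR adjusted p = 0.997) in cKOt, with an interaction of 0.50 (SE 0.37, edgeR adjusted p = 1.000). Leaving out 1 library at a time gave -0.48 to -0.005 in Ctrl, 0.081 to 0.49 in cKOt and 0.29 to 0.78 for the interaction. After thinning, the cKOt value was -0.60 and the interaction -0.31, the opposite direction. In PST nuclei edgeR called 6 of 12041 genes in Ctrl (0.0498%). In cKOt PST nuclei it called 0 of 11933 genes (0%), with 532 at an unadjusted p under 0.05 and 2 called by DESeq2. For the PST interaction it called 0 of 12361 genes (0%), with 416 at an unadjusted p under 0.05 and 6 called by DESeq2. In PCT nuclei of Ctrl, Cyp2a5 was lower at ZT16 by a log2 fold change of -1.24 (SE 0.37, unadjusted p = 0.00766), which did not pass (edgeR adjusted p = 0.221), beside 0.703% of 12232 genes called. The ZT16 libraries had 6.28 and 4.59 CPM and the ZT4 libraries 12.9 and 13.0. The share of all genes whose libraries separate so by time was not counted, so nothing is read from that. The 2 PCT clusters held different shares of these libraries, however. In the one with 69 to 759 Ctrl nuclei a library, Cyp2a5 was 7.72 and 4.63 CPM at ZT4 and 6.30 and 5.06 at ZT16 (1 to 13 UMIs). In the other, with 226 to 1008, it was 14.5 and 13.4 CPM at ZT4 and 6.27 and 2.88 at ZT16, so the lower level at ZT16 was seen in that cluster and not in the first. Cyp2a4 in the same nuclei gave -0.32 (SE 0.32, edgeR adjusted p = 0.773). In PST nuclei of Ctrl, Cyp2a5 went the other way, by 2.04 (SE 0.85, unadjusted p = 0.0361, edgeR adjusted p = 0.673), on 3 and 1 UMIs at ZT4 and 11 and 11 at ZT16. It was 3.28 without the first and 1.17 without the second Ctrl ZT4 library.

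PT-shared nuclei gave no call for either gene either. For time in Ctrl, Cyp2a4 was -0.52 (SE 0.19, unadjusted p = 0.0209, edgeR adjusted p = 0.386) and Cyp2a5 -0.57 (SE 0.27, edgeR adjusted p = 0.528), beside 0.385% of 13499 genes called. For time in cKOt, Cyp2a4 was 0.55 (SE 0.25, edgeR adjusted p = 0.664) and Cyp2a5 1.36 (SE 0.51, unadjusted p = 0.0255, edgeR adjusted p = 0.559), where edgeR called 0 of 13433 genes (0%) and 1034 had an unadjusted p under 0.05. The interaction was 1.07 (SE 0.31, unadjusted p = 0.0078, edgeR adjusted p = 0.983) for Cyp2a4 and 1.93 (SE 0.58, unadjusted p = 0.00893, edgeR adjusted p = 1.000) for Cyp2a5, beside 0.0218% of 13749 genes called. The PT-shared clusters held different shares of the libraries. In the one with 349 to 840 nuclei a library, Cyp2a4 was 17.1 and 15.7 CPM in Ctrl at ZT4 and 15.7 and 15.9 at ZT16. In cKOt it was 2.05 and 2.58 at ZT4 and 2.12 and 1.05 at ZT16. The cluster of nearly all Ctrl nuclei had 68.9 and 46.5 at ZT4 and 46.0 and 31.9 at ZT16 in Ctrl. That of mostly cKOt nuclei had 2.61 and 3.56 at ZT4 and 5.86 and 4.09 at ZT16 in cKOt. DESeq2 and the other settings were not run on PT-shared nuclei.

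The genes of the transcription factors known to act on the pair in liver were measured in the same nuclei. Of the list of Dbp, Tef, Hlf and Nfil3, edgeR called 1 of 4 tested, Dbp, lower at ZT16 than at ZT4 in Ctrl PT nuclei. Of all genes tested for that contrast 0.314% were called. The same gene was called lower in cKOt than in Ctrl at ZT4, beside 0.716% of all genes tested. Dbp was 41.5 and 24.2 CPM in Ctrl PT nuclei at ZT4, 2.16 and 1.58 in Ctrl at ZT16, 1.07 and 2.46 in cKOt at ZT4, and 1.02 and 1.43 in cKOt at ZT16. It was high only in the 2 Ctrl ZT4 libraries of these 8. Its log2 fold change was -4.12 (SE 0.40, edgeR adjusted p = 0.00573) for time in Ctrl and -4.19 (SE 0.40, edgeR adjusted p = 0.00213) for genotype at ZT4. At ZT16 the genotype difference of Dbp was -0.62 (SE 0.45, edgeR adjusted p = 0.917). The genotype call at ZT4 held under all 17 other settings. The time call was lost without the first Ctrl ZT4 library or either Ctrl ZT16 library (log2 fold changes of -4.43 to -3.73 over the 8 libraries left out in turn, edgeR adjusted p up to 0.130).

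Tef, whose product binds like DBP, was 447 and 459 CPM in Ctrl at ZT4, 316 and 251 in Ctrl at ZT16, 166 and 256 in cKOt at ZT4, and 156 and 189 in cKOt at ZT16. Its genotype difference in PT nuclei was -1.10 (SE 0.22, edgeR adjusted p = 0.0766) at ZT4 and -0.69 (SE 0.22, edgeR adjusted p = 0.375) at ZT16, and neither passed. Hlf was 204 to 344 CPM in Ctrl and 254 to 317 in cKOt PT nuclei, with genotype differences of -0.05 (SE 0.20) at ZT4 and at ZT16 that did not pass. Nfil3, the gene of the repressor, was 3.46 and 1.94 CPM in Ctrl PT nuclei at ZT4, 9.63 and 35.3 in Ctrl at ZT16, 44.6 and 19.0 in cKOt at ZT4, and 28.8 and 39.6 in cKOt at ZT16. Over all nuclei it was higher in cKOt at ZT4 by 3.21 (SE 0.53, edgeR adjusted p = 0.0476), and in PT nuclei the value of 3.59 (SE 0.70) missed the threshold (edgeR adjusted p = 0.0731). The call over all nuclei held under 6 of 15 other settings and without 3 of the 8 libraries, with log2 fold changes of 2.51 to 3.69 and an edgeR adjusted p of up to 0.322. DESeq2 also called Tef over all nuclei at ZT4, and it called Nfil3 beside Dbp for time in Ctrl, over all nuclei and in PT nuclei, where edgeR gave Nfil3 log2 fold changes of 2.71 (SE 0.52, edgeR adjusted p = 0.131) and 3.09 (SE 0.70, edgeR adjusted p = 0.159). Over all nuclei DESeq2 also called Dbp for time in cKOt, and it called the interaction of Dbp over all nuclei and in PT nuclei. Over all nuclei Dbp was lower in cKOt at ZT4 by a log2 fold change of -2.45 (SE 0.30, edgeR adjusted p = 0.0117), which was lost without the first Ctrl ZT4 library (edgeR adjusted p = 0.0633) and in a fit of only the 4 libraries compared. Over all genes tested, 0.446% were called at ZT4 over all nuclei and 0.716% in PT nuclei, and 0.174% and 0.418% at ZT16.

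**Figure D5:**
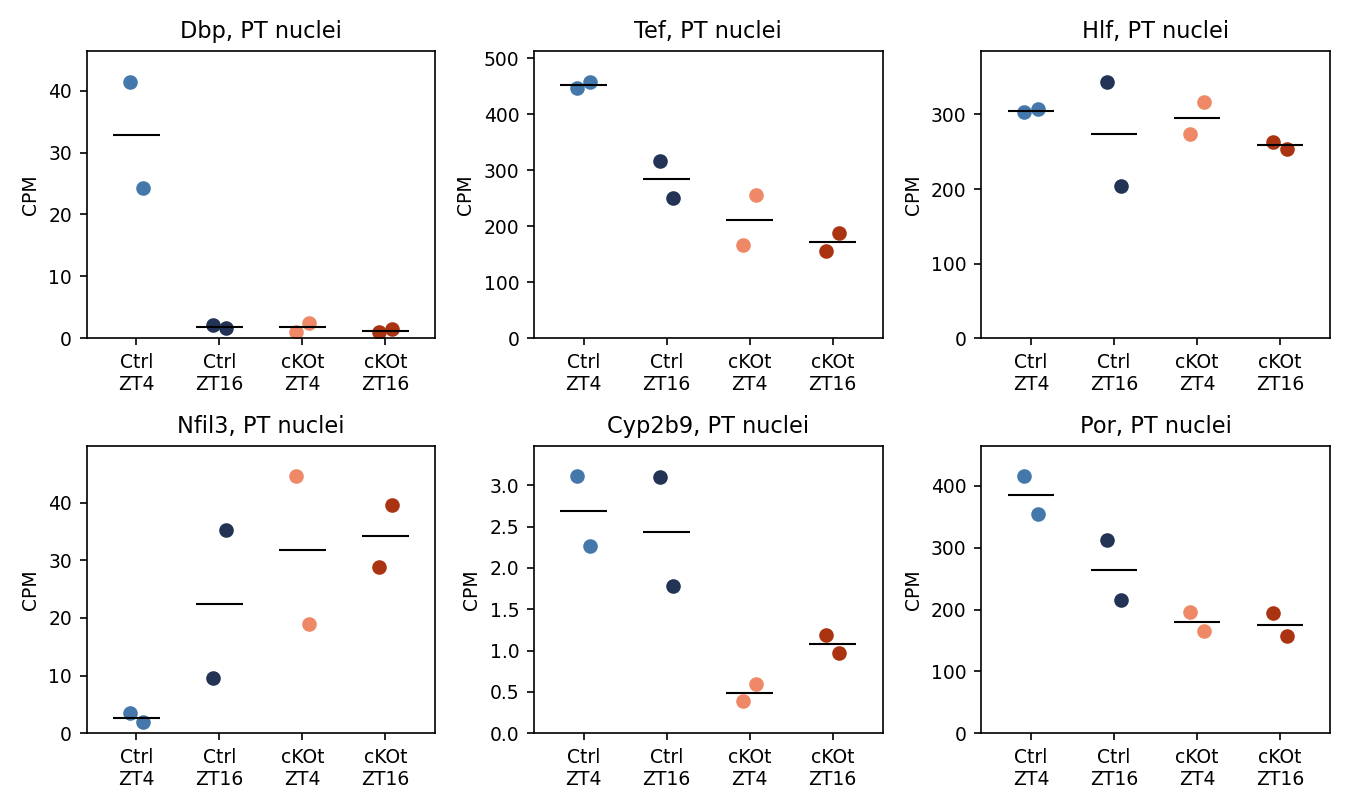
Level in CPM (linear axes from 0) of Dbp, Tef, Hlf, Nfil3, Cyp2b9 and Por in PT nuclei of each library, where points are libraries and lines the means of the 2 libraries of a group. Dbp stands at 24.2 and 41.5 CPM in Ctrl at ZT4 and at 1.02 to 2.46 CPM in the other 6 libraries.

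Of the 11 other genes of the Cyp2 cluster, 6 had enough counts over all nuclei (Cyp2b9, Cyp2s1, Cyp2b19, Cyp2b23, Cyp2f2 and Cyp2t4) and 4 in PT nuclei at ZT4. Cyp2b9, a testosterone hydroxylase and the nearest of these upstream of Cyp2a4, was the only one of the 4 that edgeR called in PT nuclei. It was 3.11 and 2.27 CPM in Ctrl at ZT4, 3.10 and 1.78 in Ctrl at ZT16, 0.393 and 0.590 in cKOt at ZT4, and 1.19 and 0.970 in cKOt at ZT16. The genotype difference was -2.41 (SE 0.41, edgeR adjusted p = 0.0384) at ZT4 and -1.15 (SE 0.36, edgeR adjusted p = 0.374) at ZT16, and over all nuclei at ZT4 it was -2.05 (SE 0.36, edgeR adjusted p = 0.0657), where DESeq2 called it. With the 8 libraries left out in turn, the call in PT nuclei held without either Ctrl ZT16 library and was lost without each of the other 6 (-2.74 to -2.18, edgeR adjusted p up to 0.191). The Cyp2b9 call was also lost with doublets left out, with nuclei thinned to 1000 UMIs, with the replicate block and in a fit of only the 4 libraries compared. It held under 7 of 17 other settings. Cyp2f2, which oxidises naphthalene, was 16.8 to 40.6 CPM in Ctrl and 25.0 to 35.1 in cKOt PT nuclei. Its genotype difference in PT nuclei was -0.05 (SE 0.29) at ZT4 and 0.06 (SE 0.29) at ZT16. Cyp2s1 was 1.72 to 2.21 CPM in Ctrl and 1.63 to 4.42 in cKOt PT nuclei, and Cyp2t4 0.132 to 0.491 and 0.114 to 0.531. Cyp2b19 and Cyp2b23 stayed at or under 0.309 CPM over all nuclei in each of the 8 libraries. In PT nuclei the genotypes' ranges of Cyp2f2, Cyp2s1 and Cyp2t4 overlapped. Those of Cyp2b9 did not, as for 3.29% of the 14636 genes tested. The pair was chosen for its genotype difference, so nothing is read from setting it beside these genes. The median genotype difference of the 4 tested genes at ZT4 was 0.24, beside 0.01 over all genes tested in PT nuclei.

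Among the genes that serve P450 enzymes, edgeR called 1 of 5 electron partners in PT nuclei at ZT4, beside 0.716% of all genes tested. This was Por, which passes electrons to all microsomal P450 enzymes. It was 415 and 354 CPM in Ctrl PT nuclei at ZT4, 312 and 215 in Ctrl at ZT16, 196 and 165 in cKOt at ZT4, and 194 and 157 in cKOt at ZT16. Every cKOt library was below every Ctrl library, as for 3.29% of the 14636 genes tested in PT nuclei. The genotype difference at ZT4 was -1.09 (SE 0.19, edgeR adjusted p = 0.0430). With the 8 libraries left out in turn, this call held without either Ctrl ZT16 library and was lost without each of the other 6 (-1.24 to -0.97, edgeR adjusted p up to 0.241). The call was also lost in a fit of only the 4 libraries compared. At ZT16 the genotype difference was -0.56 (SE 0.19, edgeR adjusted p = 0.411), and over all nuclei -0.75 (SE 0.19, edgeR adjusted p = 0.186) at ZT4 and -0.35 (SE 0.19, edgeR adjusted p = 0.912) at ZT16, none of which passed edgeR's test. DESeq2 called Por over all nuclei at ZT4. Of 11 genes of haem synthesis and breakdown and of 16 nuclear receptors and other regulators of Cyp2a genes, among them Nr1i3, Ahr, Nfe2l2 and Hnf4a, all were tested and edgeR called 0 in each of the 5 contrasts, over all nuclei and in PT nuclei. At most 2 genes of either list had an unadjusted p under 0.05 in a contrast, and DESeq2 called 0 of them over all nuclei. The median genotype difference at ZT4 in PT nuclei was -0.19 for the haem genes and 0.06 for the regulators. Of 98 other P450 genes, which include those of the cluster, 50 were tested for genotype at ZT4 in PT nuclei. Of these 1 was called, Cyp2b9, beside 0.716% of all genes tested. More had an unadjusted edgeR p under 0.05: 10 of 50 at ZT4 and 16 of 50 at ZT16. Over all genes tested in PT nuclei these numbers were 1188 of 14378 and 1103 of 14339. Over all nuclei 1 of 62 was called at ZT4, beside 0.446% of all genes tested. This was Cyp1b1, which hydroxylates oestrogens, with a log2 fold change of -1.08 (SE 0.16, edgeR adjusted p = 0.0341). The call was lost with any of the 8 libraries left out (-1.23 to -0.90). In Ctrl PT nuclei 1 of 49 was called for time, beside 0.314% of all genes tested. This was Cyp2j8, with -1.63 (SE 0.20, edgeR adjusted p = 0.0206). Its call was lost without any of the 4 Ctrl libraries or the second cKOt ZT16 library (-1.80 to -1.50). The median genotype difference over the 50 genes tested at ZT4 in PT nuclei was -0.03.

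The genes most like Cyp2a4 over the 8 libraries were sought among 10145 protein-coding genes with a mean of at least 5 CPM in PT nuclei, by Pearson's r of log2 CPM. Cyp2a4 was chosen for its genotype difference and the points fall into 2 genotypes, so a high r here follows any gene with a like difference, and the value for Cyp2a5 (0.984), chosen the same way, says nothing more. Apart from Cyp2a5, the 5 highest were Adgrb3 (0.966), Stk32a (0.959), Rap1gap (0.959), Cfb (0.959) and Nkain1 (0.956), where the points share their libraries. With each genotype's mean removed, r was 0.596 for Cyp2a5, 0.665 for Cfb, 0.268 for Nkain1, 0.159 for Rap1gap, -0.264 for Stk32a and -0.293 for Adgrb3, all far below the values across genotypes. Adgrb3, an adhesion G protein-coupled receptor, was 93.9, 66.9, 83.2 and 112 CPM in Ctrl PT nuclei and 13.2, 16.2, 13.8 and 14.2 in cKOt. Across the 22 classes in Ctrl, Cyp2a5 was much less like Cyp2a4 (r = 0.511 on log2(CPM + 1)), and the 5 highest of 11747 genes were Rab8a (0.918), Med14 (0.915), Fam53c (0.915), Pop1 (0.913) and Fem1c (0.913). Of these classes, the adipocyte-like one, with 8 Ctrl nuclei, had 0 CPM of Cyp2a4 and of each of these genes but Med14, which was 10.8 CPM there.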

How the data were processed

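Kidney nuclei sorted by DAPI were sequenced with 10x 3′ chemistry. The deposited values are UMI counts per gene and nucleus, which the authors made with Cell Ranger 7.1.0 after bcl2fastq 2.20 (processing notes, which also name Seurat 5 and GRCm39; the methods name another reference release, with intronic reads and strand not stated). Nuclei needed at least 500 genes, 800 UMIs and no more than 2% of mitochondrial UMIs, and were clustered (scanpy 1.11.5) without Cyp2a4 and Cyp2a5, and named from marker lists. Of these nuclei 96.9% were named, and 5.34% had a high doublet score and were left in the main values. CPM was computed from the deposited counts per 1000000 protein-coding UMIs. PT joined PCT, PT-shared and PST nuclei, where the design had named PCT and PST only. Counts were summed per class and library and fitted in 1 model of 4 groups with edgeR 4.0.16 (TMM, quasi-likelihood, at least 5 counts in both replicates of a compared group, Benjamini-Hochberg over all protein-coding genes tested, limit 0.05). Each SE is the absolute log2 fold change divided by the square root of the F statistic of edgeR's test. The test was checked on simulated data. The alternatives were 18 planned settings, DESeq2 1.42.0 among them; for the called genes of the lists all but DESeq2 were added after seeing the data. Depth was 30119827 to 45245488 protein-coding UMIs per library; intervals and floors (3 counts) cover counting error only. Replicates are separate mice per the methods, so p-values measure the spread of 2 mice per group. The members and lists were chosen with earlier results of these data known. Besides the members, the text names Dbp, Tef, Hlf and Nfil3, the tested genes of the Cyp2 cluster, the called genes of the other lists (at most 5 per contrast and direction) and the 5 genes most like Cyp2a4 over libraries and over classes, and a few others as background.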

Additional observations from a re-analysis of the deposited data

How the results depend on the processing

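None of the 22 tests of the members for time or interaction over all nuclei and in PT, PCT and PST nuclei passed, and none of 350 under the alternatives did; 336 of these kept their direction. Direction turned for Cyp2a4 with nuclei thinned to 1000 UMIs, to log2 values of -0.38 (time in cKOt) and -0.044 (interaction) in PT nuclei, 0.092 (time in Ctrl) in PCT nuclei, and -0.60 (time in cKOt) and -0.31 (interaction) in PST nuclei. Leaving out 1 library at a time gave, for time in Ctrl over all nuclei, -0.075 to 0.087 for Cyp2a4 and -0.39 to 0.39 for Cyp2a5 (0.39 without the first Ctrl ZT4 library). It gave -0.022 to 0.62 for time in cKOt in PT nuclei and, in PCT nuclei, -1.06 to 0.016 for time in cKOt and -0.73 to 0.34 for the interaction, all for Cyp2a4. The lone library left in a group is assumed to vary like the other groups. The causes were not tested.

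Numbers of genes called follow in the order time in Ctrl, time in cKOt, interaction, genotype at ZT4 and genotype at ZT16. Over all nuclei edgeR called 23, 0, 3, 72 and 28, DESeq2 234, 168, 48, 344 and 171, and edgeR without the filter on low counts 51, 10, 10, 127 and 64. Leaving out 1 library gave 8 to 25, 0 to 4, 0 to 2, 23 to 70 and 8 to 30. With all genes in place of protein-coding genes time gave 44 and 2, and with only the 4 libraries of the contrast genotype at ZT4 gave 18. In PT nuclei edgeR called 45, 0 and 3 for time in Ctrl, time in cKOt and interaction, DESeq2 218, 70 and 28, and edgeR without the filter 142, 34 and 14. Leaving out 1 library gave 5 to 83, 0 to 2 and 0 to 3. All genes gave 74 and 1 for time, the 4 libraries 29 for time in Ctrl, and thinned nuclei 5 for the interaction. Of the listed genes, DESeq2 called 6, 4, 1, 8 and 3 over all nuclei, and 2 for time in cKOt and 1 for the interaction in PT nuclei. Shares of nuclei with a UMI without thinning, printed beside the thinned ones, were 29.4%, 16.7%, 4.01% and 4.39% for Cyp2a4 and 1.42%, 7.75%, 2.94% and 1.23% for Cyp2a5 in Ctrl PST, PT-shared, PCT and vascular nuclei.

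The labels give replicates the same numbers in each group. Deviations of same-numbered libraries from their group means correlated at 0.373 between genotypes at ZT4, 0.370 at ZT16 and 0.172 between times in cKOt, but at -0.249 to -0.088 in the other 3 pairs of groups, over 14646 genes. As not every pair was over 0.1, the numbers were not taken to pair the libraries. A pairing of the genotypes within each time point was not tested. The replicate block below uses the same replicate term at both times and cannot follow such a pairing. With the replicate block, edgeR called 15, 2 and 0 genes over all nuclei for time in Ctrl, time in cKOt and interaction, and 1 for the interaction in PT nuclei. For genotype over all nuclei it called 53 at ZT4 and 30 at ZT16. Of the called genes of the lists, run under further settings chosen after seeing the data, the block left Dbp, Por and Cyp2j8 called, and not Nfil3 (edgeR adjusted p = 0.104), Cyp1b1 (0.0519) and Cyp2b9 (0.0544); no setting turned the direction of any of them.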

Other observations

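Nuclei that matched no class, 1390 in Ctrl and 1169 in cKOt, held 130 and 14 UMIs of Cyp2a4 and 46 and 1 of Cyp2a5. The largest cluster among them, with 858 nuclei, was 90.8% doublets by score and had the PCT markers as its closest list. The Ctrl level of Cyp2a4 in the unmatched nuclei was 18.4 to 25.0 CPM over the 4 libraries. In macula densa nuclei Cyp2a4 had 7 UMIs in Ctrl and 4 in cKOt, which is too few to compare.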
